A study of Canis lupus familiaris with 23 samples.

Results

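The comparison concerns dog hair follicle organoids that were taken through differentiation with or without the pair of growth factors Noggin and R-Spondin-1. It holds 6 of the 23 libraries of the series: the 4 libraries cultured without Noggin and R-Spondin-1 were set against the 2 libraries in the complete differentiation medium, with the replicate number as a block. Of the 4, 2 lacked only these 2 factors and 2 also lacked Forskolin, and each medium has 1 library labelled replicate 1 and 1 labelled replicate 2. All 6 came from follicle-derived organoids at passages 3 to 6, collected at day 7, and the cells were sorted into Trizol, after which their pooled RNA was counted from the 3′ ends with the CEL-seq2 protocol. The labels do not say whether the replicates are separate dogs, cultures or runs, so p-values measure the spread between these libraries only, which may be technical. The doses of the factors, the other components of the medium and whether Forskolin was in the complete medium are known only as far as the names of the media imply them.

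Noggin binds bone morphogenetic proteins (BMPs) outside the cell and keeps them from their receptors, so its presence lowers BMP signalling through SMAD proteins to targets such as the ID genes. R-Spondin-1 binds LGR receptors and removes the ubiquitin ligases RNF43 and ZNRF3 from the membrane, which leaves more Wnt receptor at the surface; AXIN2, LEF1 and NKD1 are common read-outs of the Wnt pathway. Forskolin activates adenylyl cyclase and so raises cyclic AMP. In skin, BMP and Wnt signals act on follicle stem cells in opposite ways during the hair cycle, and both factors are usual components of organoid expansion media. The 3 genes that follow were given as markers for this comparison: KRT15, a keratin of basal cells and of the follicle bulge; COL7A1, the collagen of the fibrils that anchor the epidermis to the dermis; and SOX21, a transcription factor of the hair follicle.

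The replicate number, not the medium, was the main axis of the data. The first principal component of log2 CPM (counts per 1000000 gene counts of a library) held 55.9% of the variance and separated the replicates, and the second held 21.5% and separated replicate 2 without Noggin, R-Spondin-1 and Forskolin from the other 5 libraries. Libraries with the same number but different media correlated at 0.841 to 0.952, and libraries in the same medium with different numbers at 0.782 to 0.797. Total counts were 237864 to 694104 per library, so that 3 counts, the limit a count of 0 allows, correspond to 4.35 to 12.7 CPM, for counting error only. The library that stood apart also had the fewest counts. Mitochondrially encoded RNA took 14.9% to 17.1% of counts in replicate 1, and in replicate 2 it took 12.6% in complete medium, 8.54% without the 2 factors and 7.98% without Forskolin as well.

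**Figure D1:**
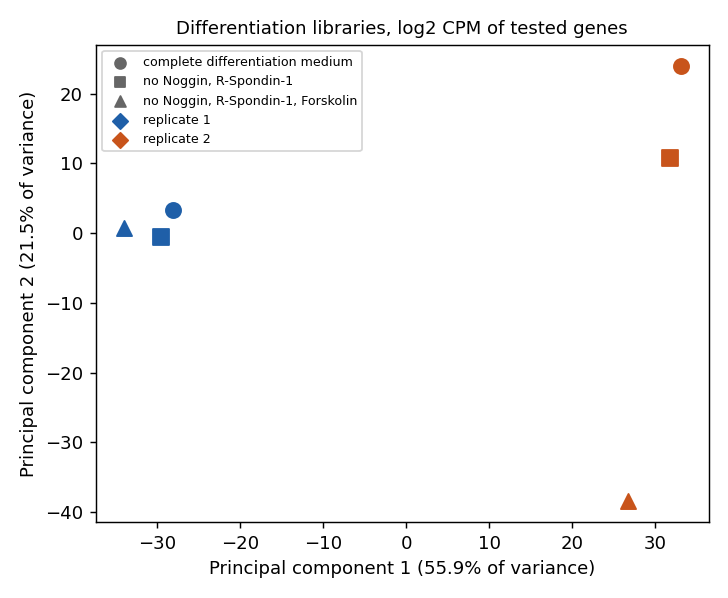
First and second principal components of log2 CPM over the 4556 genes tested; colour gives the replicate number and shape the medium. The 3 libraries of replicate 1 lie at the left and the 3 of replicate 2 at the right, and replicate 2 without Noggin, R-Spondin-1 and Forskolin lies apart at the bottom.

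Only 1 of 4556 genes passed the test for withdrawal over both media (0.0219% called, edgeR quasi-likelihood test with Benjamini-Hochberg adjustment, threshold 0.05). The gene was IGF2, a fetal growth factor of the insulin family, and it was lower without the factors; it was named after its values were seen. Without adjustment, 194 genes (4.26%) had a p under 0.05. Where only Noggin and R-Spondin-1 were absent, 0 genes passed with edgeR and 0 with DESeq2, and 125 genes (2.74%) had an unadjusted p under 0.05. Where Forskolin was absent too, 2 genes passed (0.0439%), both lower: IGF2 and ATP6V1C2, a subunit of the proton pump that acidifies vesicles; 244 genes (5.36%) had an unadjusted p under 0.05. DESeq2 also called 2 genes there, and they were different ones, EGLN3 (-3.36) and KRT23 (-4.07). The replicate term of the same fit called 434 genes higher (9.53%) and 306 lower (6.72%) in replicate 2. These comparisons share the 2 libraries in complete medium. Fits that leave out 1 library chose the genes to test anew, with 1 library left in 1 medium. Each tested more than 4556 genes, so the counts that follow are not shares of 4556 and cannot be compared directly with the count from all 6 libraries. The count over both media was 0 without replicate 2 of the Forskolin-free group, 1 without replicate 2 in complete medium, and 3, 12, 30 and 88 without replicate 1 of the medium lacking the 2 factors, replicate 2 of it, replicate 1 in complete medium and replicate 1 of the Forskolin-free group; each of these fits has 1 residual degree of freedom in place of 2.

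Change on withdrawal in replicate 1 was almost unrelated to that in replicate 2. Across the genes tested, which are not independent replicates, Pearson's r was 0.04 and Spearman's rho 0.02, and 49.9% of genes had the same sign in both. Both withdrawal libraries lay above the complete medium library of their own replicate, in both replicates, for 553 genes (12.1%), and below it for 424 (9.31%). All 4 withdrawal libraries lay above both complete medium libraries for 199 genes (4.37%) and below them for 115 (2.52%). The typical standard error of a log2 change was 0.39 (median over genes).

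**Figure D2:**
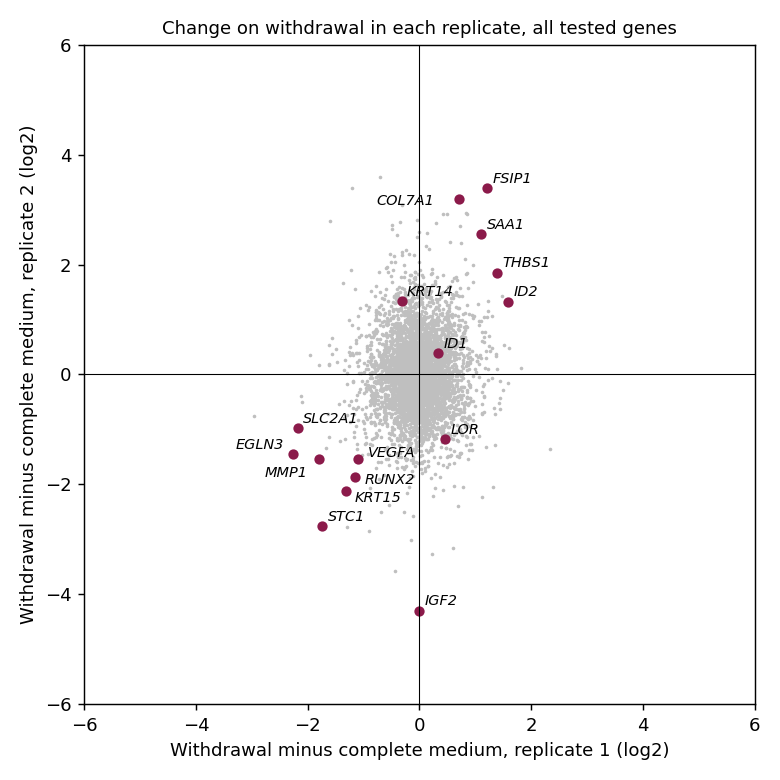
Change on withdrawal (mean log2 CPM of the 2 withdrawal libraries minus that of complete medium) in replicate 1 on the x axis and replicate 2 on the y axis, for the 4556 genes tested, in grey, with 16 genes of the text marked. The cloud has no slope; KRT15, MMP1 and STC1 lie in the quadrant lower in both, and COL7A1, THBS1 and ID2 in the quadrant higher in both.

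KRT15 was lower without the factors in each replicate, and the groups overlapped. In replicate 1 its level was 1319 CPM in complete medium, 267 in the absence of Noggin and R-Spondin-1 and 1148 without Forskolin as well. The replicate 2 libraries held 587, 316 and 50.9 CPM in the same order. Each withdrawal library thus stood below the control of its own number, but the Forskolin-free library of replicate 1 stood above the control of replicate 2. The fitted log2 change was -1.28 ± 0.59 (SE), with an unadjusted p of 0.0471 and an adjusted p of 1.00 from edgeR. Without replicate 1 of the Forskolin-free group it was -2.77, and without replicate 2 of the medium lacking only the 2 factors it was -2.42. The first of these exclusions removes the only withdrawal library above a control. The change was smaller, at -0.80, -0.99 and -0.99, without replicate 2 of the Forskolin-free group, replicate 2 in complete medium and replicate 1 of the medium lacking only the 2 factors, and -1.60 without replicate 1 in complete medium. Expansion medium, in which follicle-derived organoids of the same passages were also sampled, had 302 and 282 CPM in its 2 libraries, read against a longer gene list of 20448 entries in place of 18113.

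COL7A1 was higher in all 4 withdrawal libraries than in either library in complete medium. Complete medium gave 59.4 CPM in replicate 1 and 10.2 in replicate 2, the latter from 3 counts. Without Noggin and R-Spondin-1 the levels were 114 and 170 CPM, and without Forskolin as well they were 98.1 and 97.5. Expansion medium gave 108 and 102 CPM, inside the range of the withdrawal libraries. The log2 change was 1.58 ± 0.49 (SE), which did not pass over all genes (unadjusted p 0.00704, adjusted p 0.756, edgeR). It was 0.76 without replicate 2 in complete medium, 3.66 without replicate 1 in complete medium (adjusted p 0.00223) and 1.69 without replicate 1 of the Forskolin-free group (adjusted p 0.0118).

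SOX21 was near the detection limit in every library. Complete medium held 5 and 2 counts (7.25 and 6.79 CPM), the medium lacking Noggin and R-Spondin-1 10 and 12 counts (23.2 and 29.6 CPM), and the medium also without Forskolin 7 and 5 counts (14.9 and 21.2 CPM). The 4 withdrawal libraries all lay above the 2 controls, and the gene was under the filter on low counts. With the minimum lowered from 10 to 5 counts, a choice made after seeing the data, the log2 change was 1.49 ± 0.60 (adjusted p 0.999, edgeR). SOX21 passed this lower minimum through the withdrawal libraries, so its separation and this change are partly built in. Expansion medium held 91.9 and 81.8 CPM, above all 6 differentiation libraries.

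**Figure D3:**
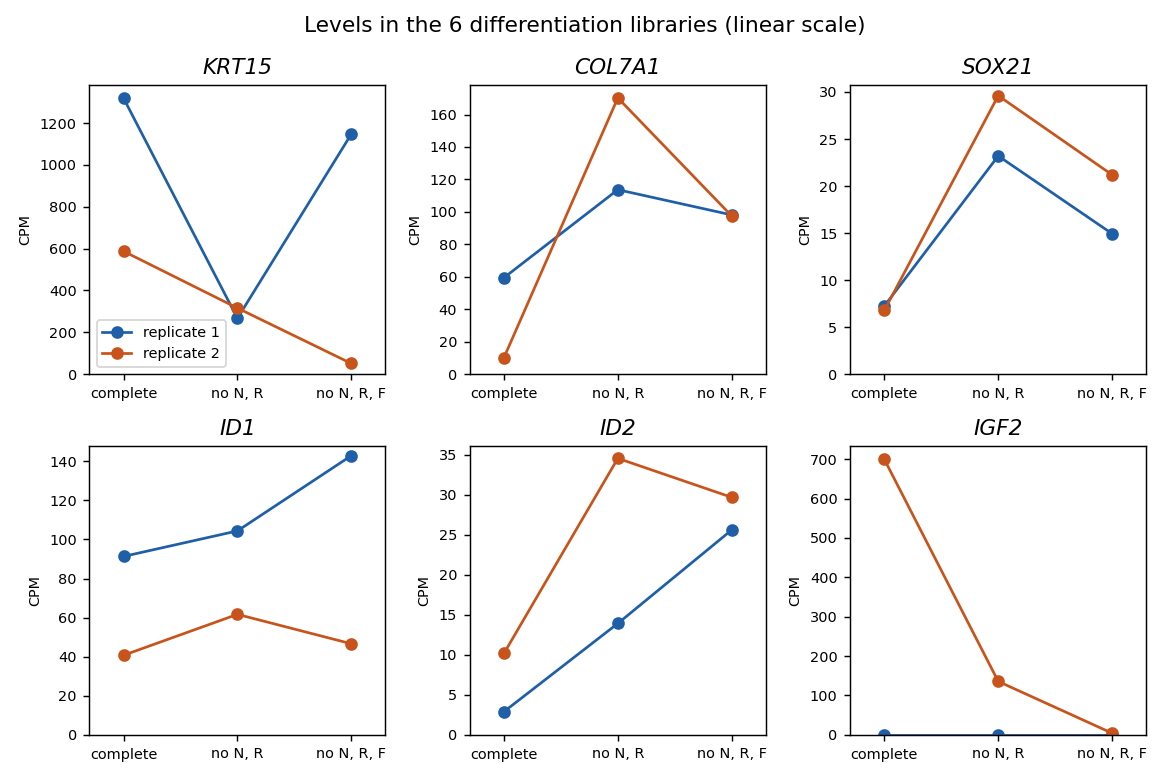
Levels in CPM (linear axes from 0) of KRT15, COL7A1, SOX21, ID1, ID2 and IGF2 in complete medium, with Noggin and R-Spondin-1 (N, R) absent, and without Forskolin (F) as well; each line joins the 3 libraries of 1 replicate number and each point is 1 library. COL7A1, SOX21 and ID2 are lowest in complete medium in both replicates, and IGF2 is seen only in replicate 2.

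The libraries carried the defining keratinocyte markers throughout. KRT14, the keratin partner of KRT5 in basal cells, stood at 49757, 43814 and 40385 CPM in replicate 1 and at 16036, 33151 and 47622 in replicate 2, in the order complete, without the 2 factors, and without Forskolin as well. It was highest in the control of replicate 1 and lowest in the control of replicate 2, so the replicates differed in direction. KRT5 ranged from 6425 to 20009 CPM with a log2 change of 0.01 ± 0.41 (SE), COL17A1 from 394 to 1409 CPM, and TP63, the master transcription factor of stratified epithelium, from 36.2 to 97.4 CPM. In bulk RNA, fewer cells of a type and less RNA per cell cannot be told apart.

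Basal and basement membrane genes were split on withdrawal, and none of the 21 tested passed. Their count was 9 higher and 12 lower, where 51.7% of all genes tested were lower. Their median log2 change was -0.10, beside -0.02 over all genes tested. After KRT15, the genes lower in both replicates were ITGA3 and CDH3, which like LAMB3 were named after their values were seen. For CDH3, which encodes P-cadherin of basal and follicle cells, all 4 withdrawal libraries (276 to 779 CPM) lay below both controls (876 and 944 CPM), with a log2 change of -0.89 ± 0.34 (SE). TP63, PLEC and CD151 were higher in both replicates beside COL7A1; TP63 had a log2 change of 0.59 ± 0.38 (SE, adjusted p 1.00, edgeR). The hemidesmosome and anchorage genes did not share a direction: LAMB3, a chain of laminin-332, had a log2 change of -0.90 ± 0.38 (SE), COL17A1 one of 0.24 ± 0.42, and COL7A1 the value given above.

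Suprabasal and cornified genes differed by replicate more than by medium. FLG, whose product filaggrin bundles keratin in the outer layers, had 4.35, 11.6 and 2.13 CPM in replicate 1 and 255, 508 and 50.9 CPM in replicate 2. LOR, a major protein of the cornified envelope, had 5.80, 27.8 and 2.13 CPM in replicate 1 and 462, 530 and 72.1 CPM in replicate 2. In replicate 2 the medium without the 2 factors was highest and the Forskolin-free one lowest for both genes. Replicate 1 had the same order, but on only 3, 5 and 1 counts for FLG and 4, 12 and 1 for LOR, near the detection limit. Replicate 2 lay above replicate 1 by 5.46 ± 0.43 (FLG) and 5.07 ± 0.46 (LOR) on the log2 scale (SE, replicate term of the edgeR fit, adjusted p 3.89e-05 for LOR). The withdrawal changes over both media were -0.53 for FLG and -0.84 for LOR and did not pass. They average opposite directions. With only the 2 factors absent, the changes were 1.03 ± 0.42 for FLG and 0.69 ± 0.46 for LOR (SE). With Forskolin absent too they were -2.10 ± 0.53 and -2.36 ± 0.56, and none of these passed. IVL, an early envelope protein, had 1647 to 1770 CPM in replicate 1 and 9860 to 12628 CPM in replicate 2, with a withdrawal change of 0.18 ± 0.38 (SE). KRT10 had 221 to 589 CPM and a change of 0.42 ± 0.33 (SE), and KRT1 had at most 1 count in any library.

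Over the lists, 12 of 22 suprabasal genes were higher and 10 lower, and 5 of 11 cornified envelope genes were higher and 6 lower. Of all genes tested, 51.7% were lower. With edgeR no member of these lists passed, and 5 and 2 members had an unadjusted p under 0.05, beside 4.26% of all genes. The median change of the cornified list was -0.30 in the fit and 0.18 and 0.14 within replicates 1 and 2, so its sign depends on how the change is taken. The replicate term called 13 of the 22 and 9 of the 11 higher in replicate 2, and none lower, beside 9.53% and 6.72% of all genes. Outer sheath keratins were mixed in the same way: KRT17 was above both controls in all 4 withdrawal libraries (2250 to 5744 CPM against 1253 and 1328 CPM, log2 change 1.16 ± 0.42 SE), while KRT6A had a change of 0.07 ± 0.49. KRT17 and KRT6A were named after their values were seen.

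Among BMP pathway genes, the targets were the best measured, and none passed. ID1, a direct BMP target that restrains differentiation factors, had 91.3, 104 and 143 CPM in replicate 1 and 40.7, 61.7 and 46.6 CPM in replicate 2. Both withdrawal libraries were above their own control in each replicate, and the groups overlapped, because all of replicate 2 was below all of replicate 1. Its log2 change was 0.40 ± 0.34 (SE, unadjusted p 0.27, edgeR). ID2, listed under a provisional locus name and matched by its gene number, had 2, 6 and 12 counts in replicate 1 and 3, 14 and 7 in replicate 2 (2.90 to 34.5 CPM). All 4 withdrawal libraries were above both controls, with a log2 change of 2.11 ± 0.67 (SE, unadjusted p 0.00765, adjusted p 0.762, edgeR). ID2 passed the filter on low counts through the withdrawal libraries, so this separation is partly built in.

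The remaining tested BMP targets were split in direction. GATA3 was higher in both replicates with a log2 change of 0.38 ± 0.34 (SE). ID4 was at 0 to 2 counts in replicate 1 and 9 to 12 in replicate 2, with a change of -0.34 ± 0.73 (SE). RUNX2, a runt-family transcription factor, was lower in both replicates: 14.5, 6.96 and 2.13 CPM in replicate 1 and 84.9, 12.3 and 29.7 CPM in replicate 2. Its log2 change of -1.96 ± 0.54 (SE) had an unadjusted p of 0.00302 and an adjusted p of 0.584 (edgeR). In all, 5 of 10 listed targets passed the filter, and 3 of these 5 were higher and 2 lower, with a median of 0.38. BAMBI, a pseudoreceptor that BMP signals induce, had 0 counts in all 6 libraries, and ID3, SMAD6 and SMAD7 were not analysed here.

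Ligands, antagonists and receptors of the BMP pathway were mostly under the filter on low counts. BMP7 was the only one of 9 ligands tested, at 66.1 to 232 CPM, and its log2 change was -0.01 ± 0.31 (SE). BMP2, BMP3 and BMP6 had 0 counts in all 6 libraries and BMP4 at most 4. Follistatin (FST), a secreted antagonist of activins and BMPs, had 68.1, 92.8 and 83.2 CPM in replicate 1 and 6.79, 34.5 and 29.7 CPM in replicate 2. It was higher in both replicates, with a log2 change of 0.67 ± 0.41 (SE, adjusted p 1.00, edgeR), and of 0.30 and 2.20 without replicate 2 and replicate 1 in complete medium. TWSG1, a BMP-binding cofactor, was lower in both (-0.83 ± 0.63, from -1.89 to -0.23 on leaving out 1 library), as was the signal transducer SMAD5 (-0.79 ± 0.47), and the coreceptor RGMA was higher in replicate 1 only, with a fitted change of 1.23 ± 0.66. RGMA passed the filter on low counts through the withdrawal libraries of replicate 1, so its positive change is partly built in. The receptors BMPR1A, BMPR2 and ACVR1 had 1 to 9 counts a library and were not tested.

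Wnt pathway genes gave little to compare, since its usual read-outs were nearly absent. AXIN2 had 1 count in replicate 1 of complete medium and 0 in the other 5 libraries, and LEF1 and NKD1 had 0 in all 6. Of the R-Spondin machinery, LGR4 had 6, 4 and 1 counts in replicate 1 and 6, 1 and 1 in replicate 2 (2.13 to 20.4 CPM), RNF43 had at most 1 and ZNRF3 at most 1. LGR4 counts were lowest without Forskolin in replicate 1 and equally low in both withdrawal media in replicate 2, and the gene was under the filter on low counts. LGR6 was not analysed here. Of 18 listed receptors and machinery genes only RYK, a Wnt coreceptor, was tested (-0.35 ± 0.37, SE).

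Wnt ligands, inhibitors and transducers that could be tested did not pass. WLS, which carries Wnt proteins to the cell surface, had a log2 change of 0.21 ± 0.33 (SE) at 210 to 360 CPM. The ligands WNT5B and WNT10A had changes of -0.22 ± 0.45 and 0.07 ± 0.36. Among inhibitors, APC of the destruction complex was higher in both replicates (0.85 ± 0.49), and the secreted SFRP1 (-0.34 ± 0.37) and DKK3 (-0.23 ± 0.32) each had 1 withdrawal library above its own control in at least 1 replicate. CTNNB1, which encodes β-catenin, had 69.6 to 139 CPM and a change of 0.10 ± 0.33. The targets EPHB3 (0.77 ± 0.39) and CD44 (-0.10 ± 0.31) and the AP-1 gene JUN (0.65 ± 0.63) did not pass either. JUN passed the filter on low counts through the withdrawal libraries of replicate 2, so its positive change is partly built in.

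Glycolysis and hypoxia genes were lower in the largest share of any list with 10 or more tested members, though none passed. Of 32 tested members 28 (87.5%) had a negative log2 change, beside 51.7% of all genes, with a median of -0.51. Within replicate 1, 28 were lower and 4 higher. Within replicate 2, 19 were lower and 13 higher, beside 2352 lower and 2200 higher of all 4556 genes. In all 4 paired comparisons with their own control 9 members (28.1%) were lower, beside 9.31% of all genes, and none was higher. SLC2A1, the glucose transporter GLUT1, had 435, 71.9 and 132 CPM in replicate 1 and 217, 165 and 67.8 CPM in replicate 2. All 4 withdrawal libraries were below both controls, with a log2 change of -1.57 ± 0.41 (SE, unadjusted p 0.00219, adjusted p 0.557, edgeR). VEGFA, the endothelial growth factor induced by low oxygen, had 24.7, 6.96 and 12.8 CPM in replicate 1 and 166, 66.6 and 42.4 CPM in replicate 2. It was lower than its own control in each case, and the groups overlapped across replicates. Its change was -1.49 ± 0.38, and those of the lactate exporter SLC16A3, NDRG1, the hexokinase HK2 and the aldolase ALDOC, also lower in both replicates, were -1.85 ± 0.49, -1.33 ± 0.40, -1.23 ± 0.47 and -1.01 ± 0.30.

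Several enzymes with high RNA levels did not keep 1 direction over the replicates. LDHA, which makes lactate, had 2292, 953 and 1423 CPM in replicate 1 and 1188, 1369 and 1043 CPM in replicate 2 (-0.53 ± 0.38, SE). PKM, which makes pyruvate, was lower than its control in replicate 1 (6926 against 4744 and 5070 CPM) and higher in replicate 2 (1260 against 5653 and 4142 CPM). Summed over the 38 members listed, the level in replicate 1 was 25532 CPM in complete medium, 15576 without the 2 factors and 18013 without Forskolin as well. The replicate 2 sums were 21808, 25132 and 24010 CPM, so the sum was below its control in replicate 1 and above it in replicate 2. The replicate 2 direction rested on PKM, the tested member with the highest fitted change. Without it, a choice made after seeing the data, the sums were 18607, 10832 and 12943 CPM in replicate 1. In replicate 2 they were then 20549, 19480 and 19869 CPM. Each withdrawal library was below its own control, by little in replicate 2, and leaving out the most opposed member favours that outcome. The median change of the tested members was -0.86 in replicate 1 and -0.31 in replicate 2. The replicate term called 16 of the 32 higher in replicate 2, beside 9.53% of all genes. With replicate 2 of the Forskolin-free group left out, 14 of the 32 (43.8%) were lower in all 3 remaining paired comparisons, beside 12.9% of all genes. EGLN3 had 47.8, 6.96 and 6.40 CPM in replicate 1 and 523, 639 and 50.9 CPM in replicate 2. Its change was -1.97 ± 0.51 over both media and -0.54 ± 0.55 (SE) where only the 2 factors were absent. Without replicate 1 of the Forskolin-free group, SLC2A1, EGLN3, VEGFA, SLC16A3, HK2 and ALDOC had changes of -1.89, -2.16, -1.73, -1.68, -1.69 and -1.18. Without replicate 2 of the medium lacking only the 2 factors, SLC2A1, EGLN3 and HK2 had -2.18, -3.02 and -2.56. For EGLN3 that exclusion removes the 1 library above its own control. Other exclusions made changes smaller: without replicate 1 in complete medium SLC2A1 had -0.86, EGLN3 -1.39 and NDRG1 -0.40, and without replicate 2 of the Forskolin-free group HK2 had -0.75 and VEGFA -1.17. These members were named after their values were seen.

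**Figure D4:**
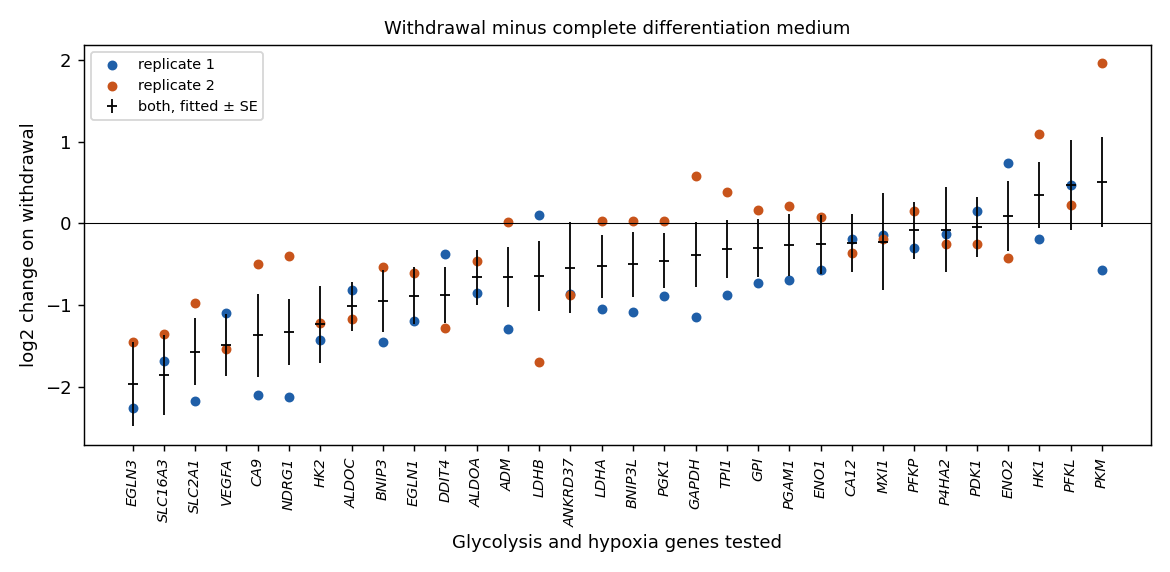
Log2 change on withdrawal of the 32 glycolysis and hypoxia genes tested, ordered by the fitted value; black bars give the fit over both replicates ± SE, and points the change within replicate 1 and replicate 2. The genes at the left are below 0 in both replicates, and most of the high-level enzymes at the right, with PKM last, are below 0 in replicate 1 and near or above it in replicate 2.

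Tgf-beta response genes leaned the other way, with 11 of 17 tested members higher and 6 lower, a median log2 change of 0.35, and none passing. Of the 17, 8 (47.1%) were higher and 2 (11.8%) lower in both replicates, beside 12.1% and 9.31% of all genes. With replicate 2 of the Forskolin-free group left out, 8 (47.1%) were higher in all 3 remaining paired comparisons, beside 19% of all genes. Then 3 (17.6%) were lower in all 3, beside 12.9% of all genes. Summed over the list, levels were 1773, 2812 and 1975 CPM in replicate 1 and 3993, 3166 and 5053 CPM in replicate 2, so the medium lacking only the 2 factors was above its control in replicate 1 and below it in replicate 2. The members described were named after their values were seen. THBS1, which encodes the matrix protein thrombospondin-1 that can activate latent Tgf-beta, had the smallest p of all genes with a positive change. It had 27.6, 102 and 68.3 CPM in replicate 1 and 67.9, 222 and 288 CPM in replicate 2, and all 4 withdrawal libraries were above both controls. Its log2 change was 1.73 ± 0.37 (SE, unadjusted p 0.000415, adjusted p 0.315, edgeR). The ligand TGFB2 had 44.9, 155 and 70.4 CPM in replicate 1 and 102, 212 and 170 CPM in replicate 2 (1.04 ± 0.34). TGFBI, ITGAV, SKI and INHBA were also higher in both replicates, at 1.19 ± 0.46, 1.04 ± 0.42, 0.73 ± 0.38 and 0.71 ± 0.46. ITGB6, a subunit of an integrin that activates Tgf-beta, was lower in both (-0.48 ± 0.33).

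TAGLN belongs to that list and to the smooth muscle list. It had 155, 369 and 132 CPM in replicate 1 and 40.7, 178 and 623 CPM in replicate 2 (1.64 ± 0.66), so it was highest in the library that stood apart. That library also held 16 counts of ACTA2, the smooth muscle actin, where the other 5 held 0 to 4. The 9 smooth muscle and pericyte markers listed summed to 57.7 and 219 CPM in complete medium and to 197 to 733 CPM on withdrawal, with 2 of the 9 at 0 in all 6 libraries; their part in the result was not tested. Without replicate 1 of the Forskolin-free group, THBS1 (1.95), ITGAV (1.44) and TAGLN (2.56) passed; THBS1 also passed without replicate 2 of the medium lacking only the 2 factors (1.88), and TAGLN without replicate 1 in complete medium (3.25). TAGLN was down to 0.67 without replicate 2 in complete medium and 0.71 without replicate 2 of the Forskolin-free group, and ITGAV to 0.56 without the latter. Across all 6 exclusions THBS1 ran from 1.49 to 1.95.

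Beside these lists, the genes with the smallest p in the fit were mostly lower on withdrawal, and they were named after their values were seen. MMP1, a collagenase of migrating keratinocytes, had 322, 99.8 and 89.6 CPM in replicate 1 and 81.5, 44.4 and 12.7 CPM in replicate 2. It was lower than its own control in each of the 4 libraries, with a log2 change of -1.70 ± 0.34 (SE, unadjusted p 0.000263, adjusted p 0.271, edgeR), while the level also differed between the controls and the groups overlapped. CUL1, a scaffold of ubiquitin ligases, was below both controls in all 4 libraries (25.4 to 86.4 CPM against 112 and 120 CPM, -1.42 ± 0.36). The hormone gene STC1 (-2.49 ± 0.57) and CDA, a cytidine deaminase (-1.94 ± 0.48), were lower in both replicates, too. Without replicate 1 of the Forskolin-free group MMP1, STC1, CDA and CUL1 passed at -2.14, -4.99, -1.68 and -1.71, and without replicate 2 of the medium lacking the 2 factors at -1.97, -3.01, -2.40 and -1.81; CDA also passed without replicate 2 in complete medium, at -3.11, and had -0.75 (adjusted p 0.879) without replicate 1 in complete medium. The smallest changes on leaving out 1 library were -1.42 for MMP1, -1.82 for STC1 and -1.05 for CUL1.

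The call for IGF2 rested on replicate 2. Its counts were 0 in all 3 libraries of replicate 1, and 206, 55 and 1 in replicate 2 (699, 136 and 4.24 CPM, in the order complete, without the 2 factors, and without Forskolin as well). The fitted change was -4.67 ± 0.54 (SE, adjusted p 0.0129, edgeR) over both media, -2.34 ± 0.51 with only the 2 factors absent (adjusted p 1.00) and -7.00 ± 0.84 with Forskolin absent too (adjusted p 0.0188). ATP6V1C2 followed the same course with 1, 1 and 0 counts in replicate 1 and 90, 59 and 3 in replicate 2 (-4.39 ± 0.68 with Forskolin absent, adjusted p 0.0475). KRT23, a keratin of differentiating epithelium, had 2, 1 and 1 counts and then 122, 59 and 3. In each of these 3 genes replicate 2 had its highest count in complete medium and its lowest without Forskolin, while replicate 1 had at most 2 counts a library. Over both media IGF2 did not pass without replicate 2 in complete medium (-1.32), without replicate 2 of the medium lacking the 2 factors (-3.88) or without replicate 2 of the Forskolin-free group (-1.46).

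Genes higher on withdrawal with small p were led, after THBS1, by FSIP1, a gene named for its tie to the sperm fibrous sheath, with 8.70, 27.8 and 27.7 CPM in replicate 1 and 6.79, 56.7 and 225 CPM in replicate 2. All 4 withdrawal libraries were above both controls (2.65 ± 0.64, SE, adjusted p 0.5, edgeR). SAA1, an acute phase protein, was likewise above both controls in all 4 (19.2 to 42.4 CPM against 10.2 and 3.40 CPM, 2.01 ± 0.60). The transcription factor SOX7 (1.89 ± 0.58), MEMO1 (1.62 ± 0.50) and CHID1 (1.45 ± 0.46) had the same separation at 24.7 to 85.8 CPM on withdrawal. Counts in complete medium were 6 and 2 for FSIP1, 7 and 1 for SAA1 and 4 and 3 for SOX7. For MEMO1 they were 9 and 3, and for CHID1 16 and 4. Genes this low in complete medium passed the filter on low counts through the withdrawal libraries, so their separation is partly built in. MUC13, a membrane mucin, was higher in both replicates but overlapped between them (1.68 ± 0.41). Without replicate 1 of the Forskolin-free group FSIP1 (3.24), SAA1 (2.47), MEMO1 (1.95), CHID1 (1.94) and MUC13 (1.73) passed; FSIP1 also passed without replicate 1 in complete medium (4.08) and without replicate 2 of the medium lacking the 2 factors (2.95), and had 1.55 without replicate 2 in complete medium.

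Of the other lists, the cell cycle genes followed the replicate. Summed S phase genes stood at 1116 to 1476 CPM in replicate 1 and 212 to 289 CPM in replicate 2, and G2 and mitosis genes at 2410 to 2742 and 716 to 910 CPM. The replicate term called 15 of 17 S phase genes and 16 of 19 G2 and mitosis genes lower in replicate 2, beside 6.72% of all genes. Withdrawal called none of them, beside 0.0219% of all genes. RRM2, a subunit of ribonucleotide reductase, had 213 to 328 CPM in replicate 1 and 4.24 to 19.7 CPM in replicate 2, and MKI67 had at most 3 counts. NFKBIA, the feedback inhibitor of NF-κB, was above both controls in all 4 withdrawal libraries (212 to 602 CPM against 180 and 209 CPM, 0.94 ± 0.37 SE), as was the receptor EGFR (207 to 271 CPM against 139 and 155 CPM, 0.67 ± 0.32). The EGFR ligand HBEGF was below both (14.9 to 33.9 CPM against 40.6 and 57.7 CPM, -0.94 ± 0.42). None of these 3, named after their values were seen, passed. Of all genes, 4.37% had all 4 withdrawal libraries above both controls and 2.52% had them below. The 8 tested EGF ligands and ERBB receptors were 4 higher and 4 lower, with a median log2 change of 0.10.

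**Figure D5:**
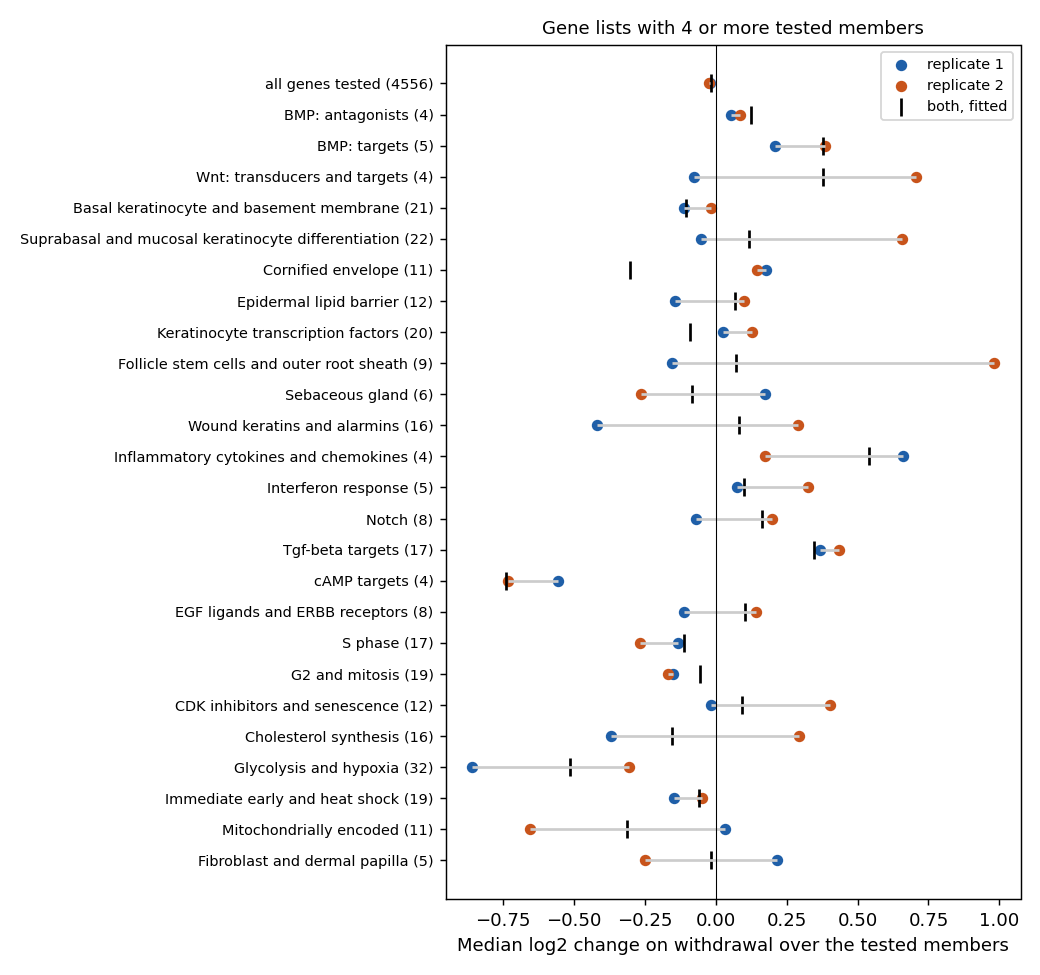
Median log2 change on withdrawal over the tested members of each list with at least 4, whose number is in brackets; points give the median within replicate 1 and replicate 2, joined by a grey line, and the black mark the median of the fitted change. Glycolysis and hypoxia genes and the 4 cAMP targets are below 0 in both replicates, Tgf-beta targets, BMP targets and inflammatory genes above 0 in both, and most other lists change sign between the replicates or lie near 0.

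Markers of blood, pigment, nerve and vessel cells were low, and those of fibroblasts and fat were measurable. The immune list summed to 0 to 6.96 CPM, melanocyte markers to 2.47 to 6.80 CPM, Schwann cell markers to 6.96 to 16.98 CPM and endothelial markers to 11.6 to 39.4 CPM, with no member of these 4 lists over the filter. Fibroblast and dermal papilla markers summed to 1053 and 1080 CPM in complete medium and 975 to 1376 CPM on withdrawal, with 5 of 23 tested and 6 at 0 in all libraries; the collagens COL1A1 and COL1A2 had at most 3 counts. Adipocyte markers summed to 84.9 and 151 CPM in complete medium and 68.3 to 276 CPM on withdrawal, with 2 of 9 at 0 in all libraries. Hair shaft and inner root sheath markers had 12 of 20 members at 0 in all libraries.

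Within withdrawal, the presence of Forskolin made no difference that passed: 0 genes were called with edgeR and 0 with DESeq2, and 154 genes (3.38%) had an unadjusted p under 0.05. Differences without minus with Forskolin were 0.29 for KRT15, -0.50 for COL7A1, 0.18 for ID1 and 0.39 for ID2 on the log2 scale. They were larger for the cornified genes FLG (-3.13 ± 0.52 SE, adjusted p 0.188, edgeR) and LOR (-3.05 ± 0.57, adjusted p 0.302), and for IGF2 (-4.66 ± 0.92, adjusted p 0.405), ATP6V1C2 (-3.42 ± 0.71, adjusted p 0.405) and EGLN3 (-2.85 ± 0.70, adjusted p 0.889), the last 3 named after their values were seen. FLG passed without replicate 1 in complete medium (-3.06), replicate 1 of the Forskolin-free group (-3.23) and replicate 2 in complete medium (-3.08), and LOR without these (-2.89, -3.01 and -2.89) and without replicate 2 of the medium lacking the 2 factors (-4.36). IGF2, ATP6V1C2 and EGLN3 passed without replicate 1 in complete medium (-4.57, -3.35 and -2.83) and without replicate 1 of the Forskolin-free group (-4.81, -3.43 and -3.19), and with no filter on low counts all 5 genes passed. The count was 80 without replicate 1 of the Forskolin-free group, 7 without replicate 1 in complete medium, 3 without replicate 2 in complete medium or of the medium lacking the 2 factors, and 1 without replicate 2 of the Forskolin-free group.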

How the data were processed

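The authors deposited 1 table per library of estimated counts per gene, which hold fractions on 5.66% to 7.23% of lines. BWA 0.6.2-r126 and CanFam3.1 are named by the submitters' processing notes; the annotation, the counting step and the use of molecular barcodes were not stated in those notes, the labels or the files. Entries naming no gene took 0.618% to 1.04% of counts and were left out, and values were rounded. Of 4829 provisional locus names 289 took a symbol from RefSeq (UU_Cfam_GSD_1.0, names only).

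The 6 libraries were fitted in edgeR 4.0.16 (R 4.3.3) with 3 medium means and the replicate number as a block, TMM scaling, filterByExpr on groups (minimum count 10) and glmQLFTest; withdrawal is the mean of both withdrawal media minus complete medium. The SE is the change divided by the square root of F. Change within a replicate uses log2 CPM with a prior count of 2. Benjamini-Hochberg adjustment ran over all 4556 genes in this fit. In the alternatives and in the fits that leave out 1 library it ran over the genes each of them tested. On counts simulated for these 4556 genes, the fit recovered 13.4% of genes changed 2-fold, 80.6% of those changed 4-fold and 98.5% at 8-fold. Of 4356 unchanged genes, 5 were called. The simulated counts followed the dispersion trend alone, with no further spread of dispersion between genes and no library standing apart. These shares may thus be higher than the real libraries allow. Alternatives used DESeq2 1.42.0, limma 3.58.1 voom, other scalings, filters and designs.

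The members and gene lists were chosen with earlier results of these data known. Named genes were a fixed set of markers and pathway genes where listed; the 10 largest called changes each way with at least 20 CPM and no overlap; up to 4 called genes per list and direction; and, in BMP and Wnt lists with none called, the 2 members with the smallest p. All other genes were named after their values were seen, whether or not this is said beside them.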

Additional observations from a re-analysis of the deposited data

How the results depend on the processing

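There are 2 libraries per medium and 2 residual degrees of freedom, and each adjusted p rests on a spread shared across genes. For withdrawal over both media, the count of called genes was 1 with DESeq2 size factors, a minimum count of 5, fractions kept or mitochondrially encoded genes left out. It was 0 with 1 mean for the 4 withdrawal libraries, with DESeq2, with limma-voom, and with all 23 libraries with or without a replicate block (the former added after seeing the data), 3 with library totals, and 19 of 14277 genes with no filter on low counts. With no filter the count was 2 where only Noggin and R-Spondin-1 were absent, 27 where Forskolin was absent too and 10 for Forskolin within withdrawal. Where Forskolin was absent too, it was 0 with limma-voom and with all 23 libraries. DESeq2 called 2 genes there, EGLN3 and KRT23, and neither IGF2 nor ATP6V1C2. Each fit that leaves out 1 library tested more genes than the main fit, so its count has another denominator. Leaving out 1 library gave 0 to 88, 0 to 17, 0 to 150 and 0 to 80 calls in the 4 comparisons.

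Same-numbered libraries deviated together from their medium means (correlations 0.527 to 0.642), but the labels do not say what the number marks, and there are only 2 numbers. Without the replicate block, 0 genes were called in each of the 4 comparisons, and the common dispersion was 0.222 in place of 0.0688. The IGF2 change was then -4.97 and no longer passed.

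Of 58 named genes with a test, 50 kept their direction and 23 also their side of the threshold in every setting run. KRT5 reversed with all 23 libraries (-0.0151 without and -0.0258 with the replicate block), limma-voom (-0.00144) and no filter (-0.00845). FLG reversed with 1 withdrawal mean (0.24), and BMP7 with no replicate block (0.0791), 1 withdrawal mean (0.0342), all 23 libraries without the block (0.0309) and library totals (0.0193). Leaving out 1 library moved KRT5 from -0.18 to 0.17, KRT14 from -0.30 to 1.34, LOR from -1.23 to 0.58, BMP7 from -0.30 to 0.30, RGMA from -1.72 to 1.90, WLS from -0.15 to 0.65 and JUN from -0.35 to 1.91. The causes were not tested.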
